A study of Mus musculus with 20 samples.

Results

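The smooth muscle contractile genes are 10 genes whose products build or control the contractile apparatus of smooth muscle: Acta2, Actg2, Myh11, Mylk, Tagln, Cnn1, Smtn, Lmod1, Des and Synpo2. They were taken by symbol from 26619 gene identifiers in the count table, and all 10 were found. The tissue was a piece of distal colon (DC) taken close to the anus from 20 male C57BL/6 mice. For 6 weeks from weaning all mice ate a feed modelled on human intake in the United States, the Total Western Diet (TWD). They then ate the TWD with 0, 2, 5 or 10% resistant potato starch (RPS) for 3 weeks, with 5 mice per diet. Every group thus shared the Western diet, and the feed of the controls held no RPS. Each mouse gave 1 library of polyadenylated RNA, and levels are given as CPM, the counts per megacount of the scaled library size. Replicates were separate mice, and nothing pairs a mouse on one diet with a mouse on another.

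Smooth muscle shortens when calcium, bound to calmodulin, switches on myosin light chain kinase, which phosphorylates the light chains of myosin and lets it pull on actin filaments. Thin filament proteins such as calponin and the tropomyosins modulate that pull, while desmin filaments and dense bodies carry the force across the cell. In the colon this apparatus sits in the circular and longitudinal layers of the muscularis externa, in the thin muscularis mucosae and in vessel walls, and many of its genes are driven by serum response factor and myocardin through a DNA element called the CArG box.

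The libraries held 18429493 to 34974230 counts, and the 0% RPS libraries, with at least 31254832, were all deeper than the other 15, with at most 31126954, so that depth and the presence of RPS cannot be told apart. Thinning every library to the smallest total gave no calls among the 10 genes. The labels disagreed for 3 mice: the description put RS10_717 on 5% RPS, RS10_725 on 10% and RS10_748 on 2%, where the treatment field gave 2, 5 and 10%. Groups here follow the description. Mouse RS10_721 on 5% RPS stood apart, with the lowest level of 9 of the 10 contractile genes, the highest summed level of 10 colon epithelial markers (23249.9 CPM against 15980.3 to 22760.3 in the other 19 mice) and 4018 CPM of 6 exocrine pancreas markers (at most 344 elsewhere). Fold changes, direction counts, pathway counts and the ratio of Acta2 to Des at 5% RPS are therefore also given without it. In bulk tissue, fewer muscle cells and less RNA per muscle cell cannot be told apart.

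Near 5 of the 10 genes the genome sequence carried the strict form of the CArG box, a 10-base element that starts with CC, ends with GG and has only A or T between. The search covered 1000 bases on each side of the annotated start of the canonical transcript in mouse assembly GRCm39, on both strands which the pattern reads alike. The boxes are shown in capitals within 30 bases, read 5′ to 3′ on the strand of the gene. Whether they bear on the levels of the genes was not tested.
Actg2, chr6:83513296-83513325, minus strand: aaaaaaaacaCCTTATATGGtaatattgct
Actg2, chr6:83513259-83513288, minus strand: cgtcagctggCCTTTTTAGGgactctgttt
Tagln, chr9:45847449-45847478, minus strand: agggtcctgcCCATAAAAGGtttttcccgg
Tagln, chr9:45847326-45847355, minus strand: gtgtctttccCCAAATATGGagcctgtgtg
Myh11, chr16:14110175-14110204, minus strand: gcctcgacttCCTTTTATGGcctgagtggt
Cnn1, chr9:22011412-22011441, plus strand: agccgccgcgCCTTATAAGGcggccttggg
Synpo2, chr3:123029058-123029087, minus strand: aagagactagCCTTTTAAGGatttaaagaa
Both Actg2 boxes lay in the annotated 5′ untranslated region, 236 and 273 bases downstream of the start. The Tagln boxes lay 64 bases upstream of the start and 59 bases downstream of it, the latter in the untranslated region. The Myh11 box was 958 bases upstream, and the Cnn1 and Synpo2 boxes were in introns, the former 910 bases downstream.

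Acta2 had no strict box in this window but 2 boxes with a single C or G in the middle, both in the annotated 5′ untranslated region.
Acta2, chr19:34232838-34232867, minus strand: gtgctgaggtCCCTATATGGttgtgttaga
Acta2, chr19:34232788-34232817, minus strand: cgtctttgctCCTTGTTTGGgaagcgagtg
These lay 133 and 183 bases downstream of the annotated start. Of the tested protein-coding genes, 8.51% held at least 1 strict box in a window of this length (1312 of 15415), and 16 of 60 other genes of the contractile pathway did (26.7%). With 1 C or G allowed the element is common: 8 of the 10 genes and 48.2% of the tested genes held one, and Lmod1 and Smtn did not. In a narrower window of 250 bases before to 50 after the start, 1 of the 10 genes (Tagln) and 1.36% of the tested genes held the strict form. A match describes the letters in the window and not binding.

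The first question was how abundant the 10 transcripts were. Together they took 1.09% ± 0.18 of all counts on 0% RPS, 1.21% ± 0.21 on 2%, 1.01% ± 0.20 on 5% and 1.04% ± 0.11 on 10% (mean ± SD, n = 5 mice each). Single mice ranged from 0.658% in RS10_721 to 1.497% in RS10_712 on 2% RPS. The ranges of the 4 diets overlapped.

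Levels of different genes were compared per kilobase of exon. The 2 smooth muscle actins led, with Acta2 (alpha smooth muscle actin, which vascular muscle and myofibroblasts also make) at 639 ± 110.3 CPM per kb and Actg2 (gamma enteric actin, the isoform of visceral muscle) at 539 ± 100.5 (mean ± SD, n = 20). Acta2 was the higher of the pair in 17 of 20 mice. Tagln (transgelin, an actin-binding protein) and Myh11 (the smooth muscle myosin heavy chain) followed at 367 ± 72.2 and 354 ± 70.5 CPM per kb, and did not separate, since Tagln was higher in 9 of 20 mice. Cnn1 (calponin) was at 320 ± 50.9 CPM per kb and below Myh11 in 15 of 20 mice. From there on each gene exceeded the next in 20 of 20 mice: Des (desmin, the muscle intermediate filament) at 264 ± 41.3, Smtn (smoothelin, an actin-associated protein of contractile muscle) at 135 ± 23.7 and Mylk (myosin light chain kinase) at 81.3 ± 13.8 CPM per kb. Lmod1 (leiomodin, which nucleates actin filaments) and Synpo2 (synaptopodin 2, an actin-bundling protein of Z-discs and dense bodies) were lowest, at 36.1 ± 6.17 and 20.7 ± 3.61. The order depended on the length used. With the longest transcript in place of all exons, Des moved from rank 6 to rank 4, and the 2 actins came to 739 CPM per kb (Acta2) and 729.5 (Actg2), with Acta2 higher in 13 of 20 mice.

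Diet was the second question. None of the 10 genes passed the edgeR test, which asked for an adjusted p of at most 0.05 and a fold change of at least 1.5 against the mice without RPS. At 2% and 5% RPS 0 of 17893 genes passed (0%), and at 10% RPS 7 did (0.0391%). These counts over all genes moved with the processing: DESeq2 gave 31 at 5% and 210 at 10%, and at 10% edgeR gave 0 with the treatment label and 5 to 189 with 1 mouse left out, most without RS10_727. At an unadjusted p under 0.05 none of the 10 was reached either, where 1.41%, 9.19% and 15.2% of all genes were, at 2, 5 and 10% RPS. With 1 mouse left out, 0 to 3 of the 10 were reached at 2%, 0 at 5% and 0 to 1 at 10%. DESeq2 and limma-voom also called 0 of the 10 in every comparison. In no gene did the mice of an RPS diet lie wholly above or below those without RPS, while 0.24%, 1.04% and 2.28% of all genes separated in this way at 2, 5 and 10%.

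**Figure D1:**
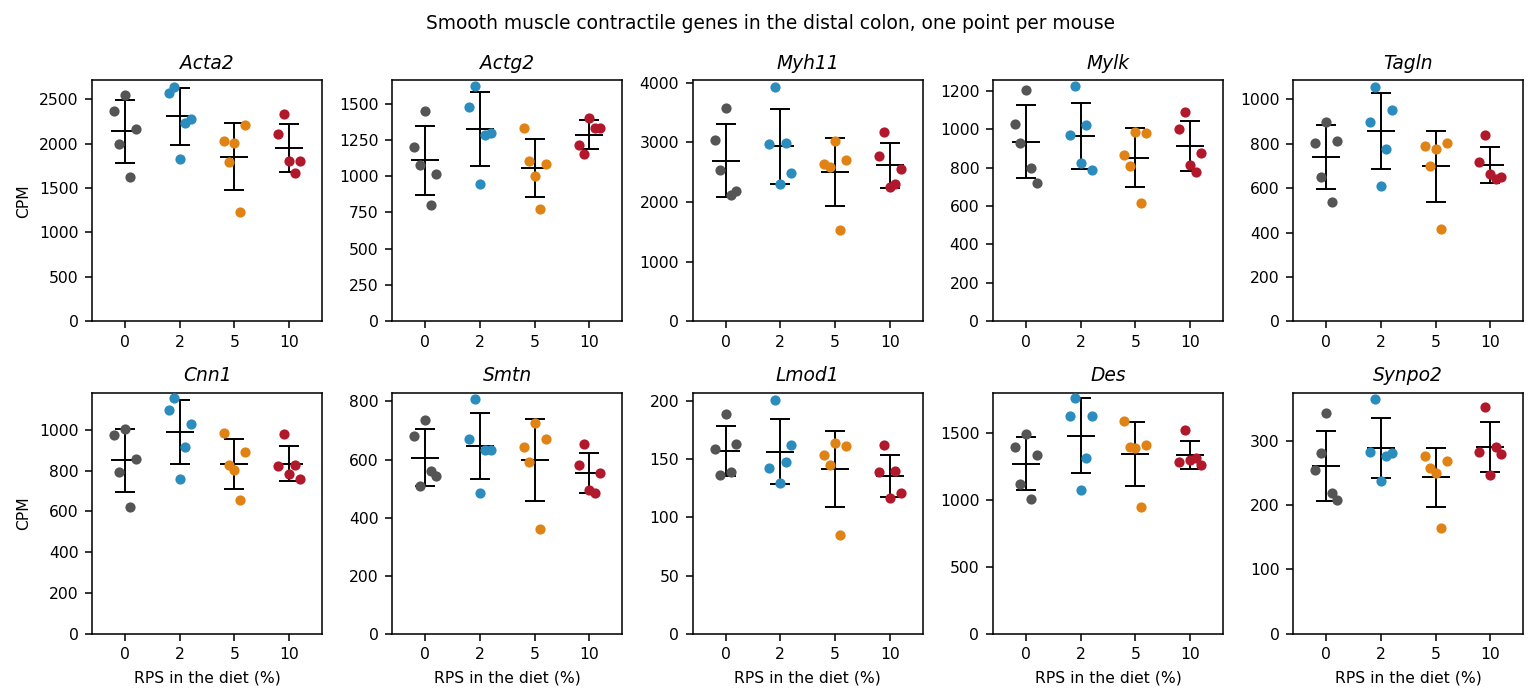
CPM of the 10 contractile genes (vertical axes, starting at 0) against the percentage of RPS in the diet, with one point per mouse and black bars for mean ± SD (n = 5 per diet). The diets overlap in every panel, and the low point at 5% RPS is mouse RS10_721.

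The 95% intervals bound what these mice allow. All 30 intervals, of 10 genes at 3 RPS levels, lay inside a 1.5-fold change in either direction. They were not adjusted for their number. With 1 mouse left out, 7 to 10 of the 10 lay inside at 2%, 9 to 10 at 5% and 8 to 10 at 10%. The fold changes themselves ran from 0.864 (Lmod1 at 10%) to 1.19 (Actg2 at 2%). The intervals reached down to 0.694 (Lmod1 at 10%) and up to 1.49 (Actg2 at 2%). A p above the threshold does not show that levels were equal.

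**Figure D2:**
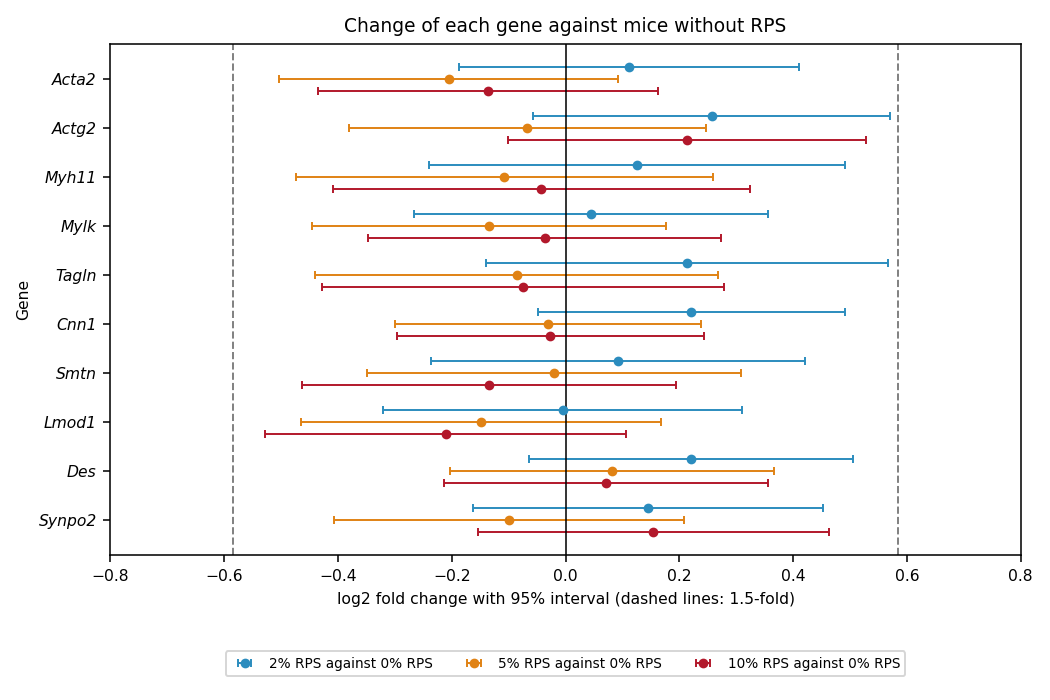
Log2 fold change of each gene against the 0% RPS mice with its 95% interval from the edgeR fit (horizontal axis), at 2% (blue), 5% (orange) and 10% RPS (red). Dashed lines mark 1.5-fold, and all 30 intervals end inside them and cross 0.

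Among the actins, Acta2 measured 1619.8, 1992, 2163, 2364 and 2549 CPM in the 5 mice on 0% RPS, in increasing order. The mice on 2% measured 1832, 2237, 2273, 2565 and 2642, those on 5% measured 1230.5, 1794, 2005, 2029.8 and 2209, and those on 10% measured 1668, 1805, 1809, 2114 and 2331 CPM. The groups overlapped throughout, with 3 of the 5 mice on 10% between the 2 lowest mice without RPS. The log2 fold change was 0.11 ± 0.14 (SE) at 2%, -0.21 ± 0.14 at 5% and -0.14 ± 0.14 at 10%, and the edgeR adjusted p was 0.9997, 0.679 and 0.702.

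Actg2 measured 799.8, 1017, 1074, 1201 and 1451 CPM on 0% RPS. On 2% it measured 946, 1287, 1295, 1478 and 1618, on 5% 772, 1003, 1086, 1101 and 1329, and on 10% 1155, 1212, 1329.8, 1332 and 1398 CPM. At 10% the mice were close together and all above the 0% median, but inside the range of the 0% mice. The log2 fold change of Actg2 was 0.26 ± 0.15 at 2%, -0.07 ± 0.15 at 5% and 0.21 ± 0.15 at 10% (edgeR adjusted p = 0.9997, 0.912 and 0.53). At 10% its 95% interval ran from -0.10 to 0.53.

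Myosin and its kinase gave the same overlap. Myh11 measured 2124, 2189, 2537, 3036 and 3581 CPM on 0% RPS, 2303, 2492, 2979, 2995 and 3923 on 2%, 1531, 2595, 2645, 2702 and 3026 on 5%, and 2260.1, 2306, 2561, 2774 and 3176 on 10%. The highest value was that of RS10_712 and the lowest that of RS10_721, a 2.56-fold range over 20 mice, the widest of the 10 genes. Its log2 fold changes were 0.13 ± 0.18, -0.11 ± 0.18 and -0.04 ± 0.18 at 2, 5 and 10% (edgeR adjusted p = 0.9997, 0.879 and 0.937). Mylk averaged 935 ± 190.3 CPM on 0% (SD, n = 5), 965 ± 174 on 2%, 852 ± 153 on 5% and 912 ± 129 on 10%, and its log2 fold changes lay between -0.13 and 0.05.

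The actin-binding proteins Tagln, Cnn1 and Smtn each had their highest mean on 2% RPS. Tagln averaged 741 ± 144 CPM on 0%, 858 ± 171 on 2%, 698 ± 161 on 5% and 703.1 ± 81.2 on 10%. Cnn1 averaged 849.8 ± 155, 990.5 ± 157, 832 ± 120.3 and 834 ± 84.7 CPM on the same diets. Smtn averaged 607 ± 98.2, 646 ± 115, 598 ± 141 and 553 ± 69.2 CPM. In all 3 genes every diet mean lay within 1 SD of the 0% mice, and the groups overlapped.

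Lmod1 had the lowest fold change at 10%. It measured 136, 139, 159, 163 and 189 CPM on 0% RPS, 129, 142, 148, 162 and 201 on 2%, 84.9, 145, 153, 162 and 164 on 5%, and 117, 121, 139, 139.9 and 162 on 10%. Of the 5 mice on 10%, 2 lay below all mice without RPS and 3 lay among them. The log2 fold change was -0.01 ± 0.15, -0.15 ± 0.15 and -0.21 ± 0.15 at 2, 5 and 10%, with an edgeR adjusted p of 0.9997, 0.791 and 0.54.

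Desmin was the only one of the 10 with a mean above that of the 0% mice on all 3 RPS diets. Des measured 1008, 1119, 1329, 1394 and 1493 CPM on 0% RPS, 1074, 1313, 1623, 1624 and 1754 on 2%, 945, 1382, 1393, 1407 and 1587 on 5%, and 1259.7, 1283, 1293, 1308 and 1521 on 10%. All groups overlapped. The log2 fold changes of Des were 0.22 ± 0.14, 0.08 ± 0.14 and 0.07 ± 0.14 (edgeR adjusted p = 0.9997, 0.881 and 0.852). Synpo2 averaged 261 ± 54.4 CPM on 0%, 288 ± 46.6 on 2%, 243 ± 45.6 on 5% and 290.1 ± 38.3 on 10%, and its log2 fold change at 10% was 0.15 ± 0.15 (edgeR adjusted p = 0.665). Reads of Synpo2 are less certain than those of the other genes, since 12.4% of the 50-base stretches of its transcript also occur in transcripts of other annotated genes, against at most 0.4% for the other 9.

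Directions were counted with and without single mice. At 2% RPS 9 of the 10 genes had a fold change above 1 (median log2 0.14), and without RS10_712, the mouse highest in all 10, 6 did (median 0.05). At 5% RPS 9 of the 10 were below 1 (median -0.09), and without RS10_721 only 3 were (median 0.02). Without that mouse the log2 fold changes at 5% were -0.09 for Acta2, -0.04 for Mylk and -0.01 for Lmod1, and the other 7 ran from 0.01 (Synpo2) to 0.18 (Des). The sign held with any 1 mouse left out in 6 genes at 2% (Acta2, Actg2, Tagln, Cnn1, Des and Synpo2) and in 4 at 5% (Acta2, Des, Lmod1 and Mylk). It held in 6 at 10% (Acta2, Actg2, Smtn, Lmod1, Des and Synpo2). At 10% RPS 3 were above and 7 below (median -0.04). The median over all 17893 genes was -0.00 at 2%, -0.01 at 5% and -0.01 at 10%.

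A linear trend over RPS percent was called for none of the 10 genes, with adjusted p from 0.367 (Lmod1) to 0.982 (Des), while edgeR called 375 of 17893 genes (2.1%). None had an unadjusted p under 0.05, which 19.1% of all genes had. The test of any difference among the 4 diets called none either (adjusted p 0.589 to 0.908), against 13 of all genes (0.0727%), or 10.6% at an unadjusted p under 0.05. With 1 mouse left out, 0 to 1 of the 10 genes had an unadjusted p under 0.05 in the trend and 0 to 2 for any difference. Slopes were positive for Actg2 and Synpo2 and negative for the other 8, of which Des turned positive under another scaling (0.00287 in log2 over 10% RPS with RLE), and over 10% RPS each 95% interval stayed inside 1.5-fold. Between 7.54% (Mylk) and 26.5% (Actg2) of the variance in log2 CPM lay between diets, where the median over all tested genes was 16.3%.

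Most of the variance of each gene lay within diets, as it did for the median tested gene. The 10 genes mostly rose and fell together, but not all pairs did so closely. Over 20 mice and 45 pairs of genes, Pearson's r between log2 CPM values had a median of 0.785. It ran from 0.494 (Actg2 with Lmod1) to 0.956 (Myh11 with Mylk). Spearman's rank correlation had a median of 0.675 and ran from 0.212 to 0.946. After the diet means were subtracted the median r was 0.833. Without RS10_721 the median r was 0.721 over 19 mice, and r ran from 0.234 (Actg2 with Lmod1) to 0.943. Spearman's rank correlation then ran from 0.081 to 0.939. Values of 1 mouse share a tissue piece, a library and its scaling, so these correlations are a description and carry no p. Tagln was the most typical, with a median r of 0.876 to the other 9, and Actg2 the least, with 0.691.

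**Figure D3:**
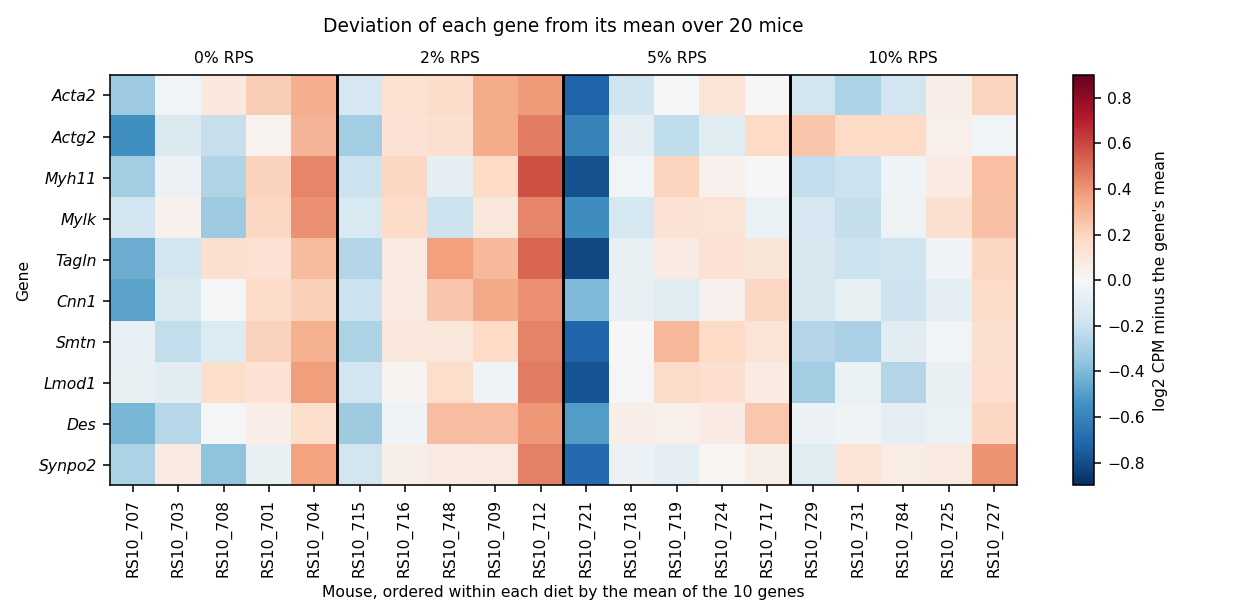
Deviation of each gene (rows) from its own mean over 20 mice, in log2 CPM (colour scale, red higher, blue lower), with mice in columns ordered within each diet by the mean of the 10 genes. The columns of RS10_721 (blue) and RS10_712 (red) each share a colour. Other columns are mixed: RS10_708 lies above the mean in Acta2 and Tagln and below it in Myh11, Synpo2 and Mylk, and Actg2 departs from most other genes in 3 mice on 10% RPS.

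The mean log2 CPM of the 10 genes summarises this. It was 9.64 ± 0.24 on 0% RPS, 9.78 ± 0.24 on 2%, 9.55 ± 0.32 on 5% and 9.63 ± 0.13 on 10% (SD, n = 5). Mouse RS10_721 was at 8.99, where the next mouse on its diet was at 9.59. Within a diet the SD of log2 CPM had a median of 0.26 over the 10 genes, against 0.22 over all tested genes and 0.14 over the 1243 genes at least as abundant as Lmod1.

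The genes outside the set whose levels over the 20 mice were most like this mean included several known from muscle. Csrp1 (a LIM protein of smooth muscle) came first with r = 0.975, followed by Tmem252 (0.956), Ckm (muscle creatine kinase, 0.944), Pgm5 (an adherens and dense-plaque protein, 0.940) and Flna (filamin A, an actin crosslinker, 0.939). Next were the tropomyosins Tpm2 (0.937) and Tpm1 (0.933), Hspb6 (a small heat shock protein of muscle, 0.928), Camk2g (0.928) and Eml1 (0.927). Of 17883 genes compared, 118 (0.66%) had r above 0.8 and 8 had r under -0.8, with a median of 0.01.

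Other genes of the pathway, 60 in 7 roles, give the wider frame. The edgeR test called 0 of 60 at every RPS level, and at an unadjusted p under 0.05 it reached 0 at 2%, 4 at 5% (1 higher and 3 lower, or 0 and 4 without RS10_721) and 6 at 10% (3 higher and 3 lower), where 1.41%, 9.19% and 15.2% of all genes were reached. In the trend 10 of 60 had an unadjusted p under 0.05, 5 rising and 5 falling, beside 19.1% of all genes, and 0 were called. DESeq2 called 3 of the 60 in the trend, beside 985 of the 16365 genes it tested (6.02%). Medians of the log2 fold change over the 60 were 0.07, -0.06 and -0.02 at 2, 5 and 10%, and -0.002 at 5% without RS10_721.

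In the myosin-regulating role, 10 genes, Myl6 (a myosin light chain) was most abundant at 456 ± 47.9 CPM per kb, and Rock2 (a kinase that restrains the myosin phosphatase) had the smallest trend p. Rock2 measured 87.1, 92.5, 106, 113 and 114 CPM on 0% RPS and 119.9, 124, 126, 129.8 and 136 on 10%. The 2 groups did not overlap, as for 2.28% of all genes. Its log2 fold change was 0.31 ± 0.11 with an edgeR adjusted p of 0.182, and for the trend the adjusted p was 0.0687. DESeq2 gave the Rock2 trend an adjusted p of 0.0316. Rock2 ran from 88.4 to 109.8 CPM on 2% RPS and from 88.7 to 151.8 on 5%, and both diets overlapped the 0% mice. The highest Rock2 level was that of RS10_721. With the mean log2 CPM of the 10 contractile genes, Rock2 had a Pearson's r of -0.382. Which cells gave the Rock2 values was not tested.

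Of 16 dense body and anchor proteins, Csrp1 was highest at 380 ± 67.1 CPM per kb and Fhl1 (a four-and-a-half LIM domain protein) had the smallest trend p. Fhl1 measured 925, 943, 1036, 1109 and 1152 CPM on 0% RPS, and 700.1, 720.6, 795, 815 and 963 on 10%. The groups overlapped by 1 mouse. The log2 fold change was -0.37 ± 0.12 (edgeR adjusted p = 0.132), and the slope was -0.04 per percent RPS (adjusted p = 0.0529 by edgeR and 0.0185 by DESeq2).

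The remaining roles held the following. Of 8 thin filament genes Tpm2 was highest (279 ± 55.1 CPM per kb) and Vcl (vinculin) had the smallest trend p (edgeR adjusted p = 0.35). Of 4 transcription factor genes Srf (serum response factor) was both, at 14.2 ± 1.08 CPM per kb and with a trend p of 0.369 after adjustment in edgeR. Of 9 channel and calcium store genes Atp2a2 (the SERCA pump) was highest at 30.7 ± 3.95, and Itpr1 (the inositol trisphosphate receptor) had a trend with an edgeR adjusted p of 0.214 and, at 5% RPS, a log2 fold change of -0.21 ± 0.06 (adjusted p = 0.325), or -0.20 without RS10_721 (adjusted p = 0.496). Pde5a led the 5 cyclic GMP genes (14.6 ± 1.47 CPM per kb), and Gucy1b1, a subunit of soluble guanylate cyclase, had an adjusted trend p of 0.164 in edgeR. Gna11 led the 8 receptor and G protein genes (57.4 ± 6.23), where Gnaq had an edgeR adjusted trend p of 0.179.

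The roles were then set beside the mean of the contractile genes. The average log2 CPM of dense body genes had r = 0.954 with it over 20 mice, thin filament genes 0.905, calcium and channel genes 0.892, myosin regulation 0.843, cyclic GMP relaxation 0.717, receptors 0.533 and transcription factors 0.393. Without the 2 mice farthest from the median of the contractile mean, r was 0.531 for relaxation, 0.323 for receptors and 0.339 for transcription factors. For dense body, myosin regulation, thin filament and calcium genes it was 0.888, 0.855, 0.803 and 0.801. Averages over a role follow its genes unevenly. The median r of single genes was 0.818 for dense body genes, 0.76 for calcium, 0.722 for thin filament, 0.676 for relaxation, 0.288 for transcription factors, 0.245 for myosin regulation and 0.056 for receptors, an order in which myosin regulation moves from the fourth place to the sixth. Of 10 myosin-regulating genes 3 had r over 0.5 and 4 were below 0, and of 8 receptor genes 4 were below 0. Myocd (myocardin, the cofactor of serum response factor in smooth muscle) had r = 0.514 and Srf 0.299. Rock1 ran the other way with r = -0.619.

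**Figure D4:**
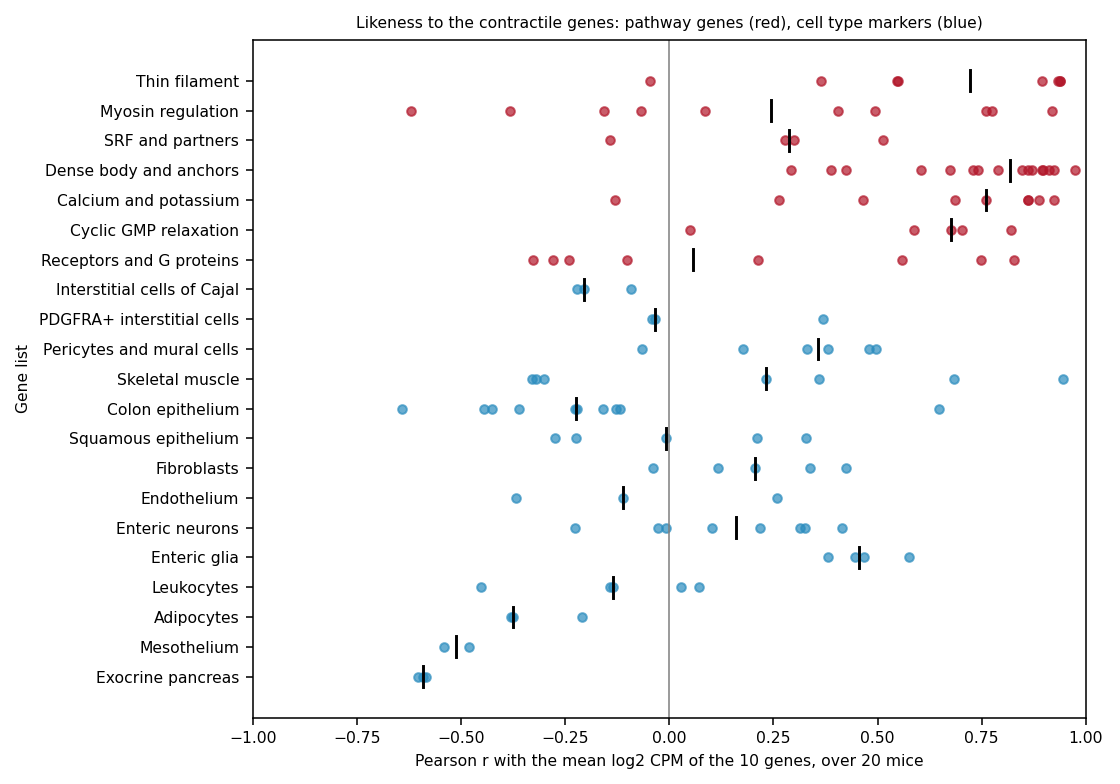
Pearson's r of each gene (points) with the mean log2 CPM of the 10 contractile genes over 20 mice (horizontal axis), for 7 pathway roles (red) and the marker lists of 14 cell types (blue), with a black bar at each list's median. By list median, dense body genes lie furthest to the right and exocrine pancreas markers furthest to the left, and single genes of other lists, such as Rock1 at -0.619, lie further left.

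Markers of other cell types were set beside these values. The 10 epithelial markers summed to 15980.3 to 21012 CPM on 0% RPS, 17368 to 19879.6 on 2%, 18452 to 23249.9 on 5% and 18859 to 22760.3 on 10%, and their mean log2 CPM had r = -0.318 with that of the contractile genes, or 0.115 without the 2 mice farthest from the median of the contractile mean. Squamous markers of the anal margin summed to 6.31 to 15.6 CPM (r = 0.013), and Krt1, Krt4 and Trp63 were near 0. Skeletal muscle markers summed to 18.8 to 56.2 CPM (r = 0.446, or -0.04 without the same mice), most of it Ckm, while Myh1 was at most 0.34 CPM. Of the 7 tested skeletal muscle markers 2 had r over 0.5, among them Ckm at 0.944, and 3 were below 0 (median 0.232). Interstitial cells of Cajal, the pacemakers of gut muscle, had a marker sum of 329 to 434 CPM (r = -0.266, or -0.351 without the same mice). PDGFRA-positive interstitial cells had 82.1 to 116 CPM (r = 0.188, or 0.017). Pericytes and vascular mural cells had 233 to 325 CPM (r = 0.564, or 0.437), with a median r of single genes of 0.357. Enteric glia summed to 21.7 to 39.0 CPM (r = 0.56), enteric neurons to 124 to 202 (r = 0.158, or 0.453 without the same mice) and fibroblasts to 1017 to 2263 (r = 0.242, or 0.027).

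For the other lists r was below 0. Endothelium summed to 82.1 to 126 CPM (r = -0.126), leukocytes to 149.6 to 271 (r = -0.134) and adipocytes to 0.268 to 40.9 (r = -0.339). Mesothelium summed to 0.804 to 15.96 CPM (r = -0.516), and exocrine pancreas to 0.062 to 4018 CPM (r = -0.598), the top value being RS10_721. Without the same 2 mice r was -0.408 for mesothelium and -0.245 for pancreas, where Spearman's rank correlation over all 20 was -0.164. The part of each cell type in the spread of the contractile genes was not tested.

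Ratios within a mouse remove the shared rise and fall, and were examined after the values had been seen. Over 45 pairs of genes at 3 RPS levels, 0 of 135 differences from the 0% mice passed Benjamini-Hochberg adjustment (exact two-sided permutation test over 252 splits, smallest adjusted p = 0.33, and 4, 4 and 8 pairs with an unadjusted p under 0.05 at 2, 5 and 10%). The smallest p that 5 against 5 mice allow is 0.00794, so that a single ratio could not pass over 135 tests, where 22 at that p would be needed. The ratio of Actg2 to Acta2 CPM was 0.470, 0.494, 0.508, 0.539 and 0.569 on 0% RPS. On 2% it was 0.516, 0.570, 0.575, 0.576 and 0.613, and on 5% it was 0.491, 0.5004, 0.614, 0.627 (RS10_721) and 0.655. On 10% it was 0.496, 0.574, 0.738, 0.773 and 0.797. Above every mouse without RPS were 4 of 5 mice on 2% and 3 of 5 on 5%. On 10%, 4 of 5 mice were above every mouse without RPS, and RS10_727, at 0.496, was not. These counts include the 3 mice with discordant labels. They are RS10_748 on 2% (0.5697, against 0.5692 in the highest 0% mouse), RS10_717 on 5% (0.655) and RS10_725 on 10% (0.574). The ratios were not recomputed with the treatment label or without these mice. The difference from 0% RPS was 0.14 in log2 at 2% (exact permutation p = 0.0476, adjusted 0.33), 0.16 at 5% (0.159 and 0.50 by the same exact test) and 0.37 at 10% (0.0476 and 0.33).

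**Figure D5:**
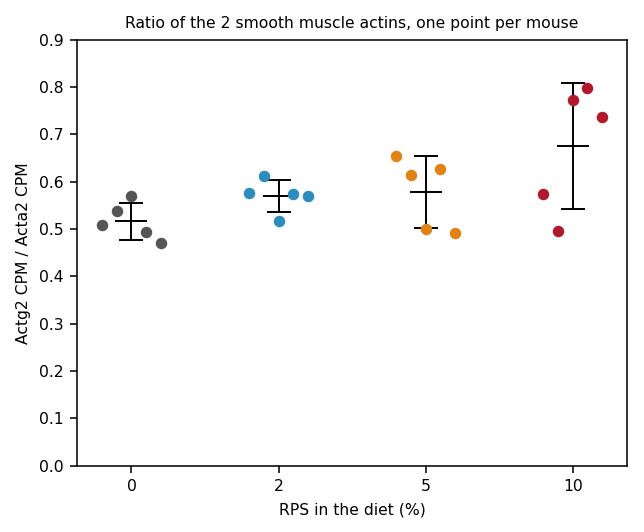
Ratio of Actg2 to Acta2 CPM (vertical axis, from 0) in each mouse against the percentage of RPS, with black bars for mean ± SD (n = 5). The mice on 10% RPS spread from 0.496 to 0.797 and overlap the 0% mice, which lie between 0.470 and 0.569.

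Of the 45 ratios, 0 at 2%, 1 at 5% and 1 at 10% RPS (2.22% each) separated from those of the 0% mice without overlap. Levels of single genes did so in 0.24%, 1.04% and 2.28%. That is a different measure, and the share over ratios of other genes was not computed. Des relative to Lmod1 was higher in all 5 mice on 10% RPS than in any on 0% (difference 0.29 in log2, exact permutation p = 0.00794, adjusted 0.33). Acta2 relative to Des was lower in all 5 mice on 5% RPS (difference -0.29, exact permutation p = 0.00794, adjusted 0.33), and without RS10_721 in the other 4 (difference -0.27, exact permutation p = 0.0159). Lmod1 relative to Synpo2 differed by -0.38 at 10% (exact permutation p = 0.0159, adjusted 0.33) and overlapped.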

How the data were processed

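Total counts per gene and mouse were deposited by the authors as raw, unnormalised counts. They had trimmed single-end reads from stranded mRNA libraries by quality and mapped them to GRCm39 in CLC Genomics Workbench. Which annotation release was used, and how reads matching several genes were handled, is not given in the sources used here. Of 26619 identifiers, 26338 matched GENCODE vM39, which gave symbols, positions and exon lengths.

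Counts were filtered with filterByExpr of edgeR 4.0.16 (minimum count 10, 17893 genes kept), scaled by TMM and tested by quasi-likelihood F-tests (robust glmQLFit) in 1 fit over the 20 mice in R 4.3.3, with Benjamini-Hochberg adjustment over all tested genes. Calls against 0% RPS needed an adjusted p of at most 0.05 and a 1.5-fold change, and the trend and any-difference tests had no fold threshold. Log2 CPM used a prior count of 2. DESeq2 1.42.0, limma-voom (limma 3.58.1), other scalings and filters, thinning to equal depth, the treatment label, and leaving out the 3 mice with discordant labels or each mouse in turn were alternatives. The scripts were tested on simulated data.

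The 10 genes and the pathway and marker lists were chosen with earlier results of these data known. Named were the 10 genes, in each pathway role the gene highest per length and the gene with the smallest trend p, and the 10 genes outside the set most correlated with its mean. Rock1, Myocd, Ckm and the ratios were singled out after their values were seen. The wide CArG window was chosen after the narrow one, and sequences are from the GRCm39 genome.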

Additional observations from a re-analysis of the deposited data

Results flagged for a closer look

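Within each diet the gap of the highest or lowest mouse to its neighbour was divided by the range of the 5 mice and set against Dixon's critical value of 0.71, for the 10 genes, their mean, the marker sums and the actin ratio. Of 104 groups 13 passed, where 1 in 20 would be 5.2 for independent, normally distributed groups. The genes rise and fall together, their mean is included and the groups share mice, so the 2 counts are not a test against chance. Mouse RS10_721 on 5% RPS was far below its neighbours in Myh11 (1531 CPM), Tagln (418 CPM), Lmod1 (84.9 CPM), Synpo2 (164 CPM) and the mean of the 10 genes (8.99 log2 CPM), and far above them in exocrine pancreas markers (4018 CPM). Mouse RS10_727 on 10% RPS was above its neighbours in Des (1521 CPM), and RS10_784, on the same diet, in pancreas markers (344 CPM). Mouse RS10_715 on 2% RPS was high in pancreas (9.99 CPM) and mesothelium markers (15.96 CPM), and RS10_716 in squamous markers (12.4 CPM). On 0% RPS, RS10_703 was high in PDGFRA-positive interstitial cell markers (116 CPM) and RS10_701 in mesothelium markers (9.04 CPM). The cause was not tested for any of them.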

How the results depend on the processing

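None of the 10 genes was called in any comparison under 10 alternatives or with any 1 mouse left out. Of 390 effects under those alternatives 8 changed sign, and of 800 with a mouse left out 43 did, all from main values of at most 0.126 in log2. With the treatment label the log2 fold change at 10% RPS was 0.0167 for Tagln and 0.0435 for Cnn1. The change of Des over 10% RPS from the trend, -0.00837, was 0.00312 with DESeq2, 0.010 with limma-voom, 0.00287 with RLE scaling, 0.0596 with the treatment label, 0.0338 without the 3 mice with discordant labels and 0.00569 after thinning, and -0.0655 to 0.0303 with 1 mouse left out. With 1 mouse left out, the log2 fold change at 2% ran from -0.000678 to 0.25 for Myh11, -0.11 to 0.070 for Lmod1, -0.0554 to 0.15 for Mylk and -0.00171 to 0.18 for Smtn. At 5% it ran from -0.17 to 0.0460 for Actg2, -0.19 to 0.0232 for Myh11, -0.18 to 0.0498 for Tagln, -0.13 to 0.0410 for Cnn1, -0.17 to 0.0156 for Synpo2 and -0.10 to 0.11 for Smtn. At 10% it ran from -0.11 to 0.0849 for Myh11, -0.16 to 0.00727 for Tagln, -0.12 to 0.0444 for Cnn1 and -0.11 to 0.0730 for Mylk. Intervals inside 1.5-fold numbered 7 to 10 of 10 at 2%, 9 to 10 at 5%, and 8 to 10 at 10% and in the trend.

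Of the 60 pathway genes, the trend called 3 with DESeq2 (Fhl1, Rock2 and Ppp1cb), 1 without TMM scaling (Fhl1) and 0 to 2 with 1 mouse left out. Fhl1 was called without RS10_703, RS10_715, RS10_724 or RS10_727, Rock2 without RS10_704, RS10_719 or RS10_721, and Nexn without RS10_727. Over all genes, DESeq2 called 1, 31 and 210 at 2, 5 and 10%, 985 in the trend and 349 for any difference. With only the 2 diets fitted, 1 gene was called at 5% and 3 at 10%. RLE scaling gave 13 at 10% and 8 for any difference, limma-voom 8 and no TMM scaling 3 for any difference, and no fold threshold 12 at 10%. With the treatment label 0 genes were called in all 5 comparisons, and without the 3 discordant mice 0 at 10%, 56 in the trend and 0 for any difference. With 1 mouse left out, 5 to 189 genes were called at 10% (most without RS10_727), 0 to 1 at 5%, 24 to 1148 in the trend and 0 to 42 for any difference. The causes were not tested. The standard errors of the log2 fold changes, 0.13 to 0.18, set the precision, and depth and the presence of RPS cannot be told apart.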
